A study of Mus musculus with 9 samples.

Results

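The miRNAs described here are those with late registry numbers: every row of the table named mmu-miR-N with N of 1000 or more, apart from miR-1197, miR-3071, miR-3072, miR-3074 and miR-3544. The rule uses names only and found 149 of the 621 rows of mature miRNAs. The libraries were made from left ventricle total RNA of male mice aged 6 months, 3 libraries in each of 3 groups. Controls were Non-Transgenic animals of strain C57BL/6J (NTG), and the transgenic groups were the line CaNrf2-Low, written TG-Low, and the line CaNrf2-High, written TG-High, on the same strain background. Nrf2 is the transcription factor that activates antioxidant response genes. The labels name no promoter for the transgene and do not say that each library came from its own animal. P-values therefore measure the spread between libraries, and this spread may be technical.

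A microRNA is a short RNA that loads into an Argonaute protein and pairs with target mRNAs mainly through its seed, bases 2 to 8. The primary transcript usually folds into a hairpin that Drosha and then Dicer cut, and each hairpin can give a 5p and a 3p mature miRNA. Registry numbers follow the order of deposit, so miRNAs that cloning found early carry low numbers and most high numbers came from deep sequencing. Some late entries lie over other short RNA genes, such as snoRNAs and scaRNAs, which guide chemical modification of ribosomal and spliceosomal RNA, or over tRNA genes. Others are mirtrons, short introns that splicing releases in place of Drosha, and the 3p arm of a mirtron ends at the 3′ splice site.

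Total counts ran from 3620465 in TG-High replicate 2 to 11695744 in TG-High replicate 1. Levels are counts per 1e6 (CPM), scaled by the trimmed mean of M values. None of the marker miRNAs of heart muscle, blood, vessel and other cell types that the table holds was at 0. The 4 heart muscle markers summed to 23029 to 25514 CPM in NTG, against 19314 to 23197 for TG-Low and 12910 to 16057 for TG-High. Most of the NTG sum was miR-499-5p (mean 21676 CPM), followed by miR-208a-3p (2461 CPM). miR-1a-3p averaged 85.0 CPM in NTG, and miR-133a-3p, a defining heart muscle miRNA, only 1.26 CPM. The sums therefore do not show what each marker did. The 7 blood markers summed to 2797 to 3415 CPM in NTG, against 2305 to 2737 for TG-Low and 1273 to 1426 for TG-High. Of the epithelium, neuron and liver list, the table holds miR-200c-3p, miR-203-3p and miR-122-5p but not the neuron marker miR-124-3p. These 3 summed to 289 to 344 CPM in NTG, against 234 to 411 for TG-Low and 159 to 195 for TG-High. Most of the NTG sum was miR-203-3p (mean 277 CPM). The endothelium, smooth muscle and fibroblast lists overlapped between NTG and each line. The part of cell makeup in the changes given below was not tested, and in whole tissue fewer cells of a type and less RNA per cell cannot be told apart.

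The sequences that carry most of the signal are those of the abundant miRNAs whose hairpins lie over snoRNA, scaRNA or tRNA genes. They are given 5′ to 3′ from RefSeq (GRCm38.p6), with the seed in capitals.
miR-1843a-5p: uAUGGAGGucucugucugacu
miR-1843b-5p: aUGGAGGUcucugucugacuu
miR-1839-5p: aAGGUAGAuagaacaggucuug
miR-3068-5p: uUGGAGUUcaugcaaguucuaacc
miR-3535: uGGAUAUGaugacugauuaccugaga
miR-1983: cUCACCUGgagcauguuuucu
miR-1291: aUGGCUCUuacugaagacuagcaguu
miR-5121: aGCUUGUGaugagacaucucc
miR-6516-3p: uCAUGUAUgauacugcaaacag
The 5p arms of miR-1843a and miR-1843b share 20 identical bases, which start at base 2 of the first and base 1 of the second. Their seeds are therefore shifted by 1 base, AUGGAGG against UGGAGGU. The shared run is in capitals here.
miR-1843a-5p: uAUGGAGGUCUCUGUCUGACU
miR-1843b-5p: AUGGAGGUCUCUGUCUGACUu
How counting divided reads that could come from either row was not given in the sources used here. Any split between these rows is uncertain.

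The late-numbered miRNAs were mostly scarce in the left ventricle. Their median NTG level was 1.11 CPM, against 7.35 CPM over all 621 rows. In NTG, 4 of the 149 averaged above 100 CPM, 23 (15.4%) above 10 CPM, 59 between 1 and 10 CPM, and 67 (45.0%) at 1 CPM or less. Of all 621 rows, 289 (46.5%) averaged above 10 CPM. Together the 149 took up 0.144% to 0.171% of a library. The NTG libraries averaged 0.157 ± 0.0137%, the TG-Low libraries 0.150 ± 0.00569% and the TG-High libraries 0.160 ± 0.00574% (SD, n = 3 each). The 3 most abundant, miR-1843a-5p, miR-1839-5p and miR-3068-5p, held 36.0% to 39.1% of that share.

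Of the 23 above 10 CPM on average in NTG, 20 were above 10 CPM in each of the 9 libraries. The members nearest the threshold were miR-1306-5p at 10.9 ± 1.21 CPM and miR-3057-5p at 11.4 ± 1.36 CPM on the upper side, and miR-1839-3p at 7.97 ± 0.557, miR-6516-5p at 7.33 ± 1.70 and miR-7043-3p at 7.21 ± 2.89 CPM on the lower side (mean ± SD, n = 3). Expression became rarer with the number: 13 of 42 members numbered under 2000 passed 10 CPM, then 7 of 36 from 2000 to under 4000, 2 of 13 from 4000 to under 6000, and 1 of 58 numbered 6000 and more. The member of that last band was miR-6516-3p. Median NTG levels in the 4 bands were 2.60, 1.17, 1.05 and 0.937 CPM.

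**Figure D1:**
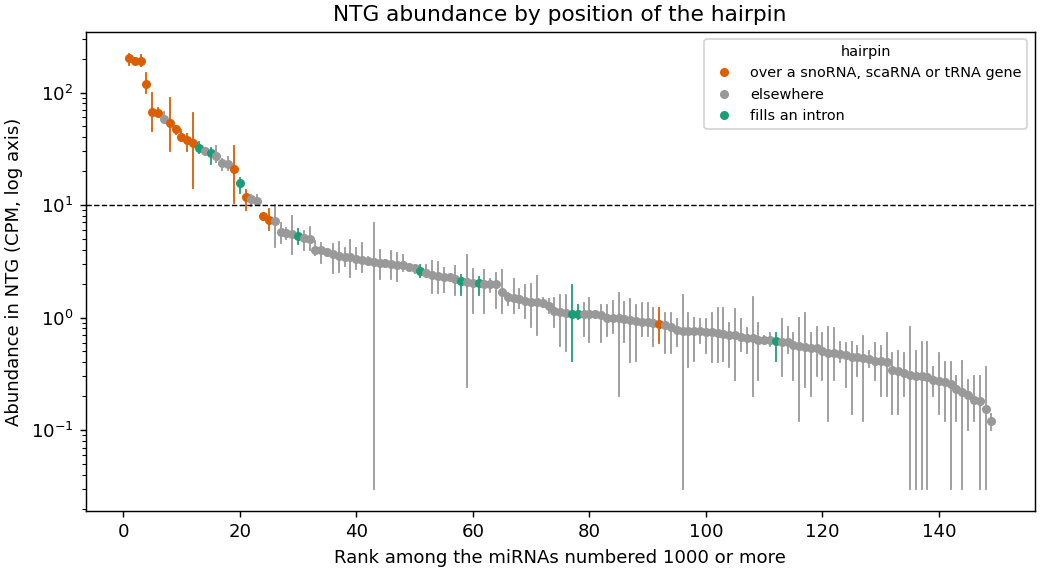
Mean abundance in NTG (CPM, log axis) of the 149 miRNAs numbered 1000 or more, ranked from high to low, with vertical lines from the lowest to the highest of the 3 NTG libraries and a value of 0 drawn at the foot of the axis. The dashed line marks 10 CPM, above which 23 miRNAs lie, 13 of them over a snoRNA, scaRNA or tRNA gene.

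The abundant late-numbered miRNAs lay mostly over genes annotated as snoRNA, scaRNA or tRNA. The hairpins of 13 of the 23 above 10 CPM (56.5%) overlap a snoRNA, scaRNA or tRNA gene, against 3 of the 126 below (2.38%) and 3 of the 260 other rows above 10 CPM with a hairpin position (1.15%). These shares describe annotation and were not tested. They include hairpins whose overlapping gene is not clearly a separate gene. For miR-1839, miR-3068 and miR-1949 the snoRNA or scaRNA gene carries the name of the miRNA itself. For miR-3535 the hairpin and the snoRNA carry the same name, Gm24148. The 16 members over such genes held 67.6% to 73.8% of the member counts of each library. Their median NTG level was 44.0 CPM, against 2.34 CPM for the 10 whose hairpin fills an intron, 0.942 for 39 in exons, 0.985 for 67 in introns, 0.775 for 7 on the opposite strand of a gene and 1.17 for 10 between genes.

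miR-1843a lies over Scarna3b, a scaRNA gene in an intron of Dcaf5 (chr12:80391613-80391677, minus strand). miR-1843a-5p was the most abundant member and the 109th row of the table by NTG level. Its level was 219.8, 213.5 and 175.1 CPM in NTG, 251.4, 250.4 and 199.7 in TG-Low, and 220.6, 225.6 and 229.4 in TG-High. TG-Low overlapped NTG. Every TG-High library lay narrowly above every NTG library, at the closest 220.6 against 219.8 CPM. Groups without overlap in TG-High against NTG made up 38.9% of all rows tested. The related miR-1843b lies over Scarna3a in an intron of Cop1, a ubiquitin ligase gene (chr1:159340358-159340423, plus strand). miR-1843b-5p measured 72.1, 63.0 and 61.2 CPM in NTG, 66.6, 79.2 and 65.8 in TG-Low, and 68.5, 71.2 and 66.2 in TG-High, with overlap between all groups.

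miR-1839-5p lies over an annotated scaRNA within an exon of 2900076A07Rik (chr7:81529916-81529988, plus strand). It measured 203.6, 192.6 and 177.4 CPM in NTG, 173.5, 180.0 and 189.3 in TG-Low, and 232.4, 214.2 and 158.6 in TG-High. miR-3068 lies over a snoRNA in an intron of Alkbh1, a gene for a nucleic acid demethylase (chr12:87437679-87437757, minus strand). miR-3068-5p measured 172.5, 180.0 and 213.4 CPM in NTG, 142.7, 165.0 and 192.9 in TG-Low, and 157.4, 185.1 and 157.3 in TG-High. The groups overlapped for both miRNAs. miR-3535 overlaps the snoRNA Gm24148 within Ncl, which encodes the nucleolar protein nucleolin (chr1:86351981-86352127, minus strand). Its level was 150.3, 104.8 and 99.4 CPM in NTG, 124.7, 93.7 and 91.6 in TG-Low, and 121.0, 80.5 and 80.7 in TG-High. The other abundant rows over such genes were the 3p arms of miR-1843a, miR-1843b and miR-3068, with miR-3068-3p at 47.4 ± 4.39 CPM in NTG, and miR-1949 at 11.9 ± 2.49 CPM (mean ± SD, n = 3).

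miR-1983, miR-1291, miR-5121 and miR-6516-3p varied more between NTG libraries than other abundant members. miR-1983 overlaps the isoleucine tRNA gene n-TItat14 with its hairpin, though the mature sequence lies outside the tRNA (chr13:21896918-21897049, minus strand). It measured 45.8, 98.7 and 55.1 CPM in NTG, 45.3, 64.7 and 69.5 in TG-Low, and 104.9, 113.7 and 72.9 in TG-High. miR-1291 overlaps Snora34, an H/ACA box snoRNA in an intron of Kansl2 (chr15:98519762-98519878, minus strand), and measured 41.3, 90.2 and 29.9 CPM in NTG. In TG-Low its 3 libraries stayed between 49.2 and 50.9 CPM, and in TG-High it measured 71.7, 49.8 and 51.3 CPM. miR-5121 overlaps Snord33, a C/D box snoRNA in the ribosomal protein gene Rpl13a (chr7:45126918-45126991, minus strand). Its NTG levels of 26.7, 65.1 and 14.3 CPM overlapped the 12.7, 16.3 and 14.2 of TG-Low and the 17.3, 12.8 and 21.4 of TG-High. miR-6516-3p, over the scaRNA Gm26083 in Snhg20, a snoRNA host gene (chr11:117077348-117077457, plus strand), measured 18.4, 33.3 and 10.4 CPM in NTG.

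In each of these 4 miRNAs NTG replicate 1 was the highest NTG library. It stood at 3.17 times the mean of the other NTG libraries for miR-5121, 2.54 times for miR-1291, 2.31 times for miR-6516-3p and 1.96 times for miR-1983. The other 19 members above 10 CPM stayed at or under 1.5 times in that library. All 4 belong to the 13 members over snoRNA, scaRNA or tRNA genes (30.8%), while 14 of all 289 rows above 10 CPM (4.84%) exceeded 1.5 times there. In the other 8 libraries, 0 or 1 of the 23 members exceeded 1.5 times the mean of the rest of its group. The source of this excess was not tested.

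**Figure D2:**
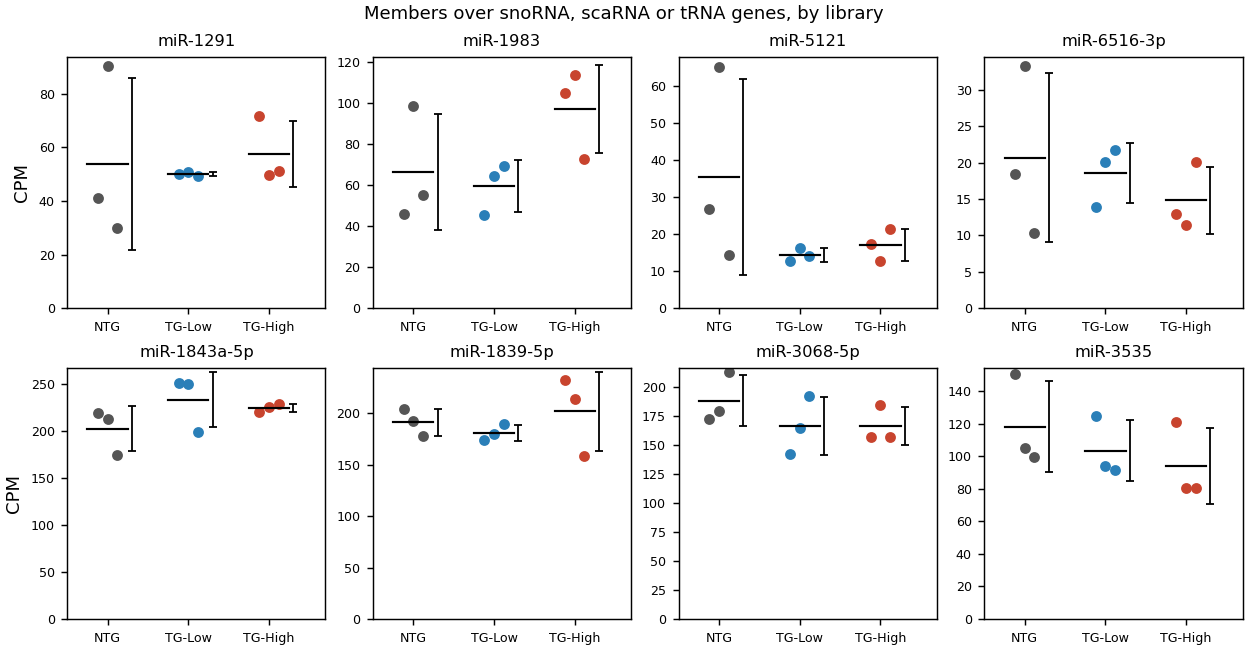
Abundance (CPM, linear axis from 0) of 8 miRNAs over snoRNA, scaRNA or tRNA genes; points are the 9 libraries, horizontal lines the group means and vertical bars the SD (n = 3). In the upper row NTG replicate 1 stands above the other NTG libraries, at 65.1 CPM for miR-5121 and 90.2 CPM for miR-1291. In the lower row the groups overlap, except that every TG-High library of miR-1843a-5p lies above NTG.

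A C/D box snoRNA carries a box C with the letters UGAUGA. These letters, searched on the mature strand only and chosen after the sequences were seen, occur in 3 of 130 members with a mature RefSeq sequence (2.31%) and in 4 of 414 other rows (0.966%). The members are miR-7688-5p and the following 2, with the letters in capitals.
miR-3535: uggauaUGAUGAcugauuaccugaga
miR-5121: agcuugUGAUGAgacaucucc
A match of letters is a description and does not show that the reads are snoRNA fragments.

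The remaining 10 abundant members came from other kinds of locus. miR-5099, from between annotated genes, measured 55.9, 53.1 and 66.5 CPM in NTG, 74.7, 82.3 and 62.7 in TG-Low, and 59.0, 67.0 and 51.8 in TG-High. miR-1964-3p, in an intron of the zinc finger gene Zfp84, measured 31.1, 27.6 and 31.6 CPM in NTG, 36.9, 30.0 and 33.0 in TG-Low, and 30.0, 27.7 and 23.5 in TG-High. miR-1249-3p, in an exon of 5031439G07Rik, measured 25.8, 24.3 and 20.6 CPM in NTG against 25.1 to 33.7 CPM over the 6 transgenic libraries. The first 2 of these overlapped between all groups, and miR-1249-3p overlapped with NTG through TG-High replicate 0. miR-1306-5p lies in an exon of Dgcr8, the gene of the Drosha partner that binds primary miRNA hairpins, and measured 10.1, 10.3 and 12.3 CPM in NTG and 6.94 to 13.3 CPM over the transgenic libraries.

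Hairpins that fill a whole intron, within 5 bases at each end, numbered 10 of 149 members (6.71%) and 2 of 465 other positioned rows (0.430%). Of these, 3 were above 10 CPM. miR-3102-3p, which fills an intron of Arhgef17 (chr7:100882306-100882409, minus strand), measured 32.1 ± 3.62 CPM in NTG. miR-1981-5p and miR-1981-3p, from an intron of Marc2, measured 29.0 ± 5.17 and 15.5 ± 2.46 CPM in NTG (mean ± SD, n = 3 each). The other 7 were scarcer, and the class gave 9 tested rows.

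Most 3p members numbered 6000 and more ended where an annotated intron ends. Of 34 such 3p members with a mature sequence, 25 (73.5%) end in AG, the last letters of an intron, against 7 of 30 other 3p members (23.3%) and 12 of 214 3p rows outside the set (5.61%). The mature end lies within 5 bases of the 3′ end of an annotated intron in 28 of the 34 (82.4%), 11 of the 30 (36.7%) and 3 of the 214 (1.40%). The 3p arm made up 39 of the 58 members numbered 6000 and more (67.2%) and 36 of the other 91 (39.6%). Examples with the final AG in capitals are miR-7043-3p from Rassf4 (chr6:116645978-116646047, minus strand), miR-7093-3p from Armcx3 (chrX:134757631-134757731, plus strand) and miR-7048-3p from Dedd2 (chr7:25217668-25217725, minus strand).
miR-7043-3p: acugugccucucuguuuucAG
miR-7093-3p: uuuccaucugucauccugcAG
miR-7048-3p: ucuuccauucucuuuccccAG
These late entries were nearly all below the abundance threshold. miR-7043-3p was the highest of the 3, with 54, 82 and 42 counts in NTG, 51, 33 and 59 in TG-Low, and 53, 142 and 39 in TG-High.

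miR-3065 could not be told apart from miR-338. Their hairpins lie on opposite strands of the same locus, within the kinase gene Aatk (chr11:120014767-120014853, plus strand for miR-3065, which is opposite to Aatk), and 21 bases of miR-3065-5p are the reverse complement of miR-338-3p, shown in capitals.
miR-3065-5p: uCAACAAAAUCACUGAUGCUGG
miR-338-3p: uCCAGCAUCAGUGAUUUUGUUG
The rows of miR-3065-5p and miR-338-3p held the same count in all 9 libraries: 175, 200 and 336 in NTG, 327, 283 and 251 in TG-Low, and 160, 362 and 108 in TG-High. The rows of miR-3065-3p and miR-338-5p were the same apart from 1 count in TG-Low replicate 1. Strand use in counting was not given in the sources used here. Levels of miR-3065-5p (27.4 ± 5.40 CPM in NTG) and miR-3065-3p (23.2 ± 3.35 CPM) therefore cannot be told apart from those of miR-338.

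The design asks first how the 2 transgenic lines together differ from NTG. Few late-numbered miRNAs passed the threshold. A filter on low counts (edgeR's filterByExpr with a minimum count of 10) kept 89 of the 149, among 509 rows in all, and the quasi-likelihood test of edgeR, with p-values adjusted over the 509 by the Benjamini-Hochberg method, called 4 of the 89, 2 higher and 2 lower. Over all rows tested 8.64% were called, 4.72% higher and 3.93% lower, against 4.49% of the members. At an unadjusted p under 0.05 there were 14 members (15.7%), against 30.8% of all rows. The transgenic and NTG libraries did not overlap in CPM for 11 of the 89 (12.4%), against 18.1% of all rows. The median log2 fold change was 0.02 over the members and 0.01 over all rows. Of the 89, 66 averaged 10 CPM or less in NTG, where low counts limit what the test can call. The lower share called therefore does not show that the members changed less.

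Both arms of miR-3057 fell. The hairpin lies in an exon of Apba3, which encodes an adaptor protein of the X11 family (chr10:81271597-81271687, plus strand). Both mature sequences are shown with the seed in capitals.
miR-3057-5p: aUUGGAGCugagauucugcgggau
miR-3057-3p: uCCCACAGgcccagcucauagc
miR-3057-5p measured 11.9, 9.84 and 12.4 CPM in NTG, 7.83, 6.12 and 7.90 in TG-Low, and 6.21, 6.38 and 5.61 in TG-High. Every transgenic library was below every NTG library. The log2 fold change was -0.76 ± 0.18 (SE), a 1.69-fold lower level, with an edgeR adjusted p of 0.0205. It was the only member above 10 CPM in NTG that passed the threshold. The limit of 10 CPM was set on NTG, where miR-3057-5p is high, and every transgenic library was below it. Its place among the members above 10 CPM is therefore not independent of its fall. Its edgeR adjusted p was 0.0772 without NTG replicate 0 (log2 fold change -0.72), 0.0910 without NTG replicate 2 (-0.67) and 0.0516 without TG-High replicate 1 (-0.73), and stayed under the threshold without any of the other 6 libraries.

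miR-3057-3p, the scarcer arm, had 17, 18 and 23 counts in NTG, 8, 7 and 10 in TG-Low, and 3, 11 and 5 in TG-High. These are 2.35, 2.19 and 2.30 CPM in NTG, 0.950, 0.856 and 1.32 in TG-Low, and 0.423, 0.936 and 1.34 in TG-High, with no overlap. The log2 fold change was -1.25 ± 0.30 (adjusted p 0.0235 by edgeR). The call was lost without NTG replicate 0, 1 or 2 (log2 fold changes -1.23, -1.31 and -1.23, edgeR adjusted p 0.0772, 0.0555 and 0.0938) and without TG-High replicate 1 (-1.23, 0.0582). The arms come from 1 hairpin, so they are not separate evidence of its change. On its transgenic libraries alone miR-3057-3p would not have passed the filter on low counts.

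miR-3102-5p02-5p and miR-6945-3p were higher. On their NTG libraries alone neither would have passed the filter on low counts. Each was tested because its transgenic libraries, where it is high, passed, so its call is not independent of that choice. The first is a row of the miR-3102 hairpin in Arhgef17 under a name that RefSeq does not list, so its sequence is not shown. It measured 0.969, 0.971 and 1.30 CPM in NTG (7, 8 and 13 counts), 1.78, 2.57 and 2.24 in TG-Low, and 2.68, 2.81 and 2.14 in TG-High, with no overlap. The log2 fold change was 1.12 ± 0.27 (adjusted p 0.0227 by edgeR). Leaving out any of the 3 NTG libraries, TG-High replicate 0 or TG-High replicate 1 gave log2 fold changes of 1.05, 1.02, 1.31, 1.06 and 1.07 and edgeR adjusted p of 0.0772, 0.0838, 0.0614, 0.0628 and 0.0582. The more abundant miR-3102-3p of the same hairpin measured 31.3, 29.0 and 36.1 CPM in NTG, 37.5, 44.3 and 53.7 in TG-Low, and 48.1, 36.9 and 42.2 in TG-High. Its libraries did not overlap either, and its log2 fold change of 0.45 ± 0.16 missed the threshold (adjusted p 0.0947 by edgeR). A further row of the hairpin, miR-3102-3p02-3p, stood at 2.30 to 2.91 CPM in NTG, with 2.20 to 3.68 CPM in the TG-Low libraries and 4.01 to 4.37 CPM in the TG-High libraries.

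miR-6945-3p overlaps an exon of Pdlim7, a gene for a PDZ and LIM domain protein of the cytoskeleton, and its mature sequence ends within 5 bases of the 3′ end of an intron of that gene (chr13:55507625-55507692, minus strand).
miR-6945-3p: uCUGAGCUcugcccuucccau
It had 4, 8 and 5 counts in NTG, 9, 23 and 9 in TG-Low, and 18, 22 and 8 in TG-High, which are 0.554, 0.971 and 0.500 CPM in NTG, 1.07, 2.81 and 1.18 in TG-Low, and 2.54, 1.87 and 2.14 in TG-High. The level was 2.83-fold higher (SE 0.42 on the log2 scale) with an edgeR adjusted p of 0.0493, and the groups did not overlap. This call was lost without 7 of the 9, in turn NTG replicates 0, 1 and 2 (log2 fold changes 1.40, 1.81 and 1.32), TG-Low replicate 1 (1.33), and TG-High replicates 0, 1 and 2 (1.38, 1.52 and 1.46), with edgeR adjusted p from 0.0555 to 0.160. With all 9 libraries, the adjusted p by edgeR was 0.0530 with DESeq2 size factors and 0.0551 without the 5 most abundant miRNAs.

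**Figure D3:**
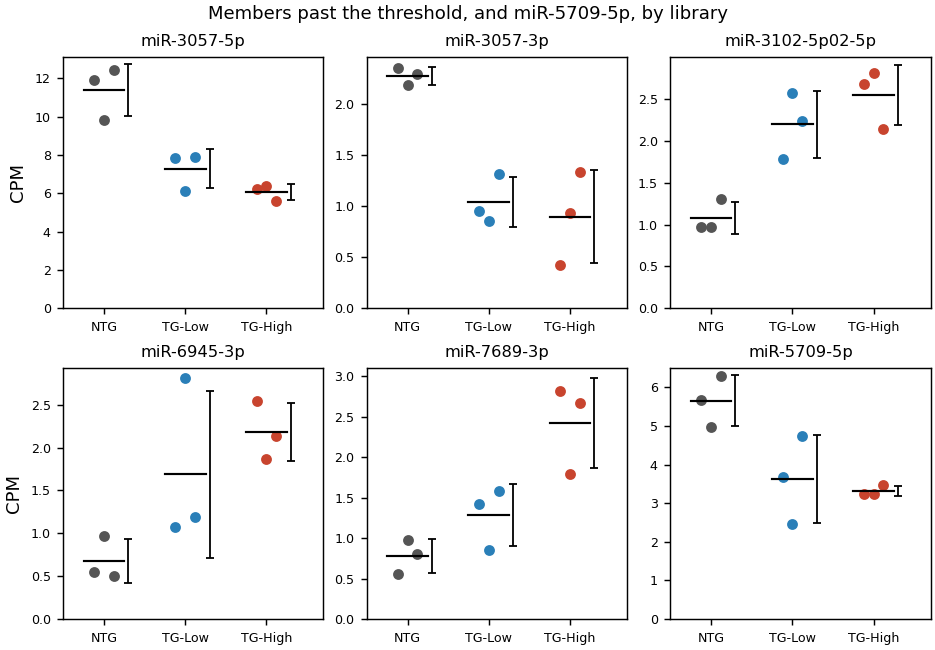
Abundance (CPM, linear axis from 0) in the 9 libraries of the 5 miRNAs past the threshold in at least 1 comparison, and of miR-5709-5p, which was not; points are libraries, horizontal lines group means and vertical bars the SD (n = 3). Both arms of miR-3057 lie lower in every transgenic library (miR-3057-5p at 5.61 to 7.90 CPM) than in NTG (9.84 to 12.4 CPM).

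Several members lay just short of the threshold. miR-5709-5p, in an intron of the receptor phosphatase gene Ptprm, had 41, 41 and 63 counts in NTG, 31, 20 and 36 in TG-Low, and 23, 38 and 13 in TG-High. In CPM these were 4.98 to 6.30 in NTG and 2.45 to 4.74 in the transgenic libraries, with no overlap, and a log2 fold change of -0.70 ± 0.22 (adjusted p 0.0653 by edgeR, 0.0478 by DESeq2's Wald test). miR-5125, in an intron of the splicing factor gene Srrm2, had 2, 5 and 0 counts in NTG, 12, 13 and 5 in TG-Low, and 10, 8 and 4 in TG-High, with a log2 fold change of 1.97 ± 0.65 (adjusted p 0.0782 by edgeR). miR-3097-3p, in an intron of Rgs12, a regulator of G protein signalling, measured 1.10 to 1.46 CPM in NTG and 1.60 to 3.18 CPM in the transgenic libraries (log2 fold change 0.85 ± 0.29, edgeR adjusted p 0.0793). The groups did not overlap in miR-5125 or miR-3097-3p. On their NTG libraries alone neither would have passed the filter on low counts.

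miR-5121 had the largest fall among the abundant members, a log2 fold change of -1.14 ± 0.35 with an edgeR adjusted p of 0.0570. Without NTG replicate 1, the library that stood apart in this miRNA, the log2 fold change was -0.41 with an adjusted p of 0.327. Without NTG replicate 2 it was -1.52 with an adjusted p of 0.0201, and DESeq2's Wald test on all libraries gave an adjusted p of 0.0213. The direction was the same in each of these fits and its size followed the NTG library left out.

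Of the 23 members above 10 CPM, 14 had a log2 fold change above 0 in TG against NTG, and their values ran from -1.14 to 0.45 with a median of 0.03. Of these 23, 1 was called, against 37 of the 266 other rows above 10 CPM. In TG-High against NTG 1 of the 23 was called, against 75 of the 266. In TG-Low against NTG and in TG-High against TG-Low 0 of the 23 were called, against 8 and 7 of the 266. The 16 members over snoRNA, scaRNA or tRNA genes gave 15 tested rows, of which edgeR called 0 in any of the 4 comparisons. Over all rows edgeR called 8.64%, 1.57%, 18.3% and 1.38% in TG, TG-Low and TG-High against NTG and TG-High against TG-Low. The 15 rows had median log2 fold changes of 0.03, -0.06, 0.08 and -0.01 in the same order. DESeq2's Wald test called 1 of these 15, miR-5121, in each of the 3 comparisons with NTG, where it called 13.9%, 5.70% and 19.4% of all rows.

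Taken by itself, TG-Low gave no call among the 89 members by edgeR, where 1.57% of all rows were called. At an unadjusted p under 0.05 there were 9 members (10.1%), against 17.3% of all rows. DESeq2's Wald test called 1 member, miR-5121 (DESeq2 adjusted p 0.0245), and 5.70% of all rows. The smallest edgeR p among the members belonged to miR-3102-5p02-5p, with a log2 fold change of 1.01 ± 0.32 (adjusted p 0.136 by edgeR). miR-3057-5p showed a log2 fold change of -0.63 ± 0.20 (0.149) and miR-3057-3p of -1.11 ± 0.37 (0.152). The libraries of these 3 did not overlap with NTG, as in 15 of the 89 members (16.9%) and 22.2% of all rows. A p that misses the threshold in TG-Low does not show that the lines differ. The median log2 fold change was 0.06 over the members and 0.02 over all rows.

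TG-High against NTG gave 5 calls among the 89 members (5.62%), 3 higher and 2 lower, where 18.3% of all rows were called, 8.84% higher and 9.43% lower. Of the 5 called members, 4 averaged 10 CPM or less in NTG. TG-High and NTG did not overlap in 20 of the 89 (22.5%), against 38.9% of all rows. This comparison shares its NTG libraries with the others. miR-3057-5p fell by 0.90 on the log2 scale (SE 0.21, edgeR adjusted p 0.0141) and miR-3057-3p by 1.42 (SE 0.40, adjusted p 0.0311). miR-3102-5p02-5p showed a log2 fold change of 1.23 ± 0.32 (adjusted p 0.0231 by edgeR) and miR-6945-3p of 1.67 ± 0.48 (adjusted p 0.0341 by edgeR).

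The fifth call was miR-7689-3p, on the opposite strand of Sorcs2, a sorting receptor gene (chr5:36301570-36301628, plus strand).
miR-7689-3p: uUAGAGCCagacugccuggguuu
It had 4, 8 and 8 counts in NTG, 12, 7 and 12 in TG-Low, and 20, 21 and 10 in TG-High, which are 0.554, 0.971 and 0.800 CPM in NTG, 1.42, 0.856 and 1.58 in TG-Low, and 2.82, 1.79 and 2.67 in TG-High. TG-High lay above both other groups, and TG-Low overlapped NTG. On its NTG libraries alone miR-7689-3p would not have passed the filter on low counts. The log2 fold change in TG-High was 1.57 ± 0.41 (adjusted p 0.0231 by edgeR). It was 0.85 ± 0.38 in TG-High against TG-Low, which did not pass (adjusted p 0.610 by edgeR).

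Each of the 5 calls in TG-High depended on single libraries. Without TG-High replicate 0 edgeR called 0 of the 5, with adjusted p of 0.0721 for miR-3057-5p, 0.0736 for miR-3102-5p02-5p, 0.0910 for miR-7689-3p, 0.126 for miR-6945-3p and 0.170 for miR-3057-3p, while their log2 fold changes were -0.87, 1.26, 1.46, 1.58 and -1.04. Only miR-7689-3p was called without TG-High replicate 1, and only miR-3057-5p without NTG replicate 0. Other losses came without NTG replicate 2 (all but miR-3102-5p02-5p, edgeR adjusted p 0.0573 to 0.109), NTG replicate 1 (miR-3102-5p02-5p, 0.0577), TG-Low replicate 0 (miR-3057-3p, 0.0557) and TG-High replicate 2 (miR-6945-3p, 0.0676). DESeq2's Wald test called 4 members, 3 of them shared with edgeR, and 19.4% of all rows. It gave 0.0541 for miR-3102-5p02-5p and 0.0567 for miR-3057-3p.

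TG-High against TG-Low gave 0 calls among the 89 members by edgeR and 0 by DESeq2's Wald test, where edgeR called 1.38% and the Wald test 2.36% of all rows. At an unadjusted p under 0.05 edgeR found 3 members (3.37%), all with a log2 fold change above 0, against 8.06% of all rows. The lines did not overlap in 8 members (8.99%), against 16.5% of all rows. miR-1983 showed a log2 fold change of 0.69 ± 0.27 (adjusted p 0.498 by edgeR), from 45.3 to 69.5 CPM in TG-Low to 72.9 to 114 CPM in TG-High, while NTG spanned 45.8 to 98.7 CPM. miR-7043-3p showed a log2 fold change of 0.73 ± 0.33 (adjusted p 0.610 by edgeR). The members with the smallest p among those below 0 were miR-6236 (log2 fold change -0.98 ± 0.46), miR-3065-5p (-0.39 ± 0.19) and miR-5099 (-0.32 ± 0.17), with edgeR adjusted p of 0.614, 0.622 and 0.622.

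The ratio of the 5p to the 3p counts of a hairpin does not depend on library scaling. Among the members, 5 hairpins had both arms above 10 CPM in NTG, of 80 such hairpins in the table. For miR-1843a the 5p/3p ratio was 5.88, 4.61 and 4.59 in NTG, 8.11, 7.28 and 6.07 in TG-Low, and 7.05, 6.73 and 7.74 in TG-High. Every transgenic library lay above every NTG library. The mean log2 ratio was 2.32 in NTG and 2.83 in the transgenic libraries, a difference of 0.51 with a two-sided exact permutation p of 0.0119, the smallest that 84 splits of 3 against 6 libraries allow, and 0.0794 after Benjamini-Hochberg adjustment over the 80 hairpins. Groups that do not overlap in this ratio made up 15.0% of the 80 hairpins. The 5p arms of miR-1843a and miR-1843b share 20 bases, and the split of reads between their rows is uncertain. The ratios of both hairpins carry this uncertainty, and its part in their differences was not tested.

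The other 4 hairpins overlapped between NTG and the transgenic libraries. miR-3068 had ratios of 4.07, 3.63 and 4.24 in NTG, 3.65, 3.30 and 3.18 in TG-Low, and 3.07, 2.95 and 2.73 in TG-High, a log2 difference of -0.34 (exact permutation p 0.0238, adjusted 0.0952). miR-1843b differed by -0.26 (exact permutation p 0.0357, adjusted 0.110) and miR-3065, whose counts mirror miR-338, by 0.43 (exact permutation p 0.0238, adjusted 0.0952). miR-1981 differed by 0.12 (exact permutation p 0.536, adjusted 0.691). An unadjusted p under 0.05 was reached by 4 of these 5 hairpins and by 29 of all 80 (36.2%), and no hairpin of the 80 passed an adjusted p of 0.05.

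**Figure D4:**
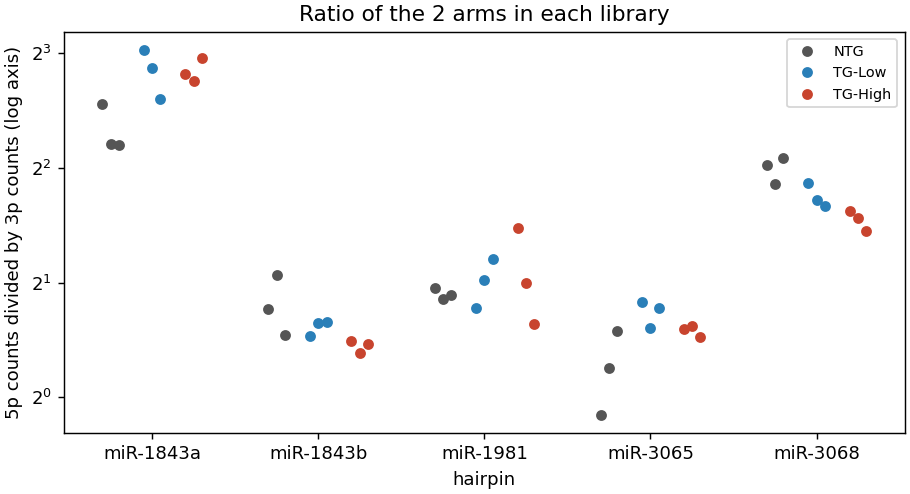
Ratio of 5p to 3p counts (log axis) in the 9 libraries for the 5 late-numbered hairpins with both arms above 10 CPM in NTG; each point is a library. The miR-1843a ratio is 4.59 to 5.88 in NTG and 6.07 to 8.11 in the transgenic libraries, and the other 4 hairpins overlap. The split of 5p reads between miR-1843a and miR-1843b is uncertain.

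Both arms of miR-1843a entered this ratio, and neither passed the threshold. miR-1843a-5p had a log2 fold change of 0.19 ± 0.12 in TG against NTG (edgeR adjusted p 0.313). miR-1843a-3p measured 37.4, 46.3 and 38.1 CPM in NTG, 31.0, 34.4 and 32.9 in TG-Low, and 31.3, 33.5 and 29.6 in TG-High. The groups did not overlap, and the log2 fold change of -0.33 ± 0.12 missed the threshold (adjusted p 0.0935 by edgeR). miR-1843b-3p, whose final 9 bases also occur in miR-1843a-3p, measured 42.4, 30.1 and 42.1 CPM in NTG, 46.1, 50.7 and 41.9 in TG-Low, and 48.8, 54.4 and 48.1 in TG-High (log2 fold change 0.34 ± 0.15, edgeR adjusted p 0.149).

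Many late-numbered rows read 0 in a whole transgenic line. In TG-Low, 32 of the 149 were at 0 in all 3 libraries, and in TG-High 25 were, while none was at 0 in all 3 NTG libraries. They made up 22 rows at 0 in both lines, 10 in TG-Low alone and 3 in TG-High alone, 35 in all. Over all 621 rows, 53 were at 0 throughout TG-Low, 41 throughout TG-High and 0 throughout NTG. Partial patterns were rarer: 3 members in TG-Low, 10 in TG-High and 10 in NTG were at 0 in 1 of 3 libraries, and 0 members in any group were at 0 in 2 of 3. How a row comes to be 0 in each library of a line, with so few in between, was not tested.

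**Figure D5:**
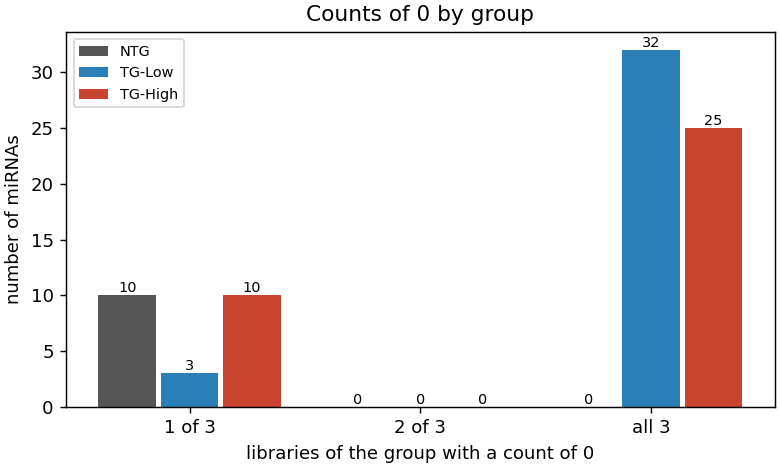
Number of the 149 miRNAs (bars, axis from 0) with a count of 0 in 1, 2 or all 3 libraries of each group. Rows at 0 in all 3 libraries number 32 in TG-Low, 25 in TG-High and 0 in NTG, and no row is at 0 in 2 of 3 libraries of any group.

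These rows were all scarce in NTG. The highest count of any of the 35 in an NTG library was 9, and the highest sum over the 3 NTG libraries was 21. Of 56 members with an NTG sum of 21 or less, 35 were at 0 throughout a line. The filter on low counts removed all 35, so none was tested, and no fold change is given for them. If these entries are measured counts, a 0 over a line allows up to 3 counts, which is 0.124 CPM over the 3 TG-Low libraries and 0.133 CPM over the 3 TG-High libraries, from counting error alone. Whether they were measured as 0 or written as 0 in making the table was not tested, and in the latter case these limits do not hold.

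Among the 21 of these with a mean NTG count of at least 3, miR-7093-3p in Armcx3 had 8, 3 and 8 counts in NTG and 0 in all 6 transgenic libraries. miR-3109-3p, in an intron of the annexin gene Anxa2, had 2, 6 and 9 counts in NTG and 0 in both lines, and miR-5114, in an exon of the desaturase gene Scd2, had 6, 4 and 5 and 0 in both lines. Others were at 0 in 1 line and not in the other. miR-7052-3p, in an intron of Josd2, had 4, 6 and 6 counts in NTG, 0 throughout TG-Low, and 16, 14 and 6 in TG-High. miR-1930-5p, in an exon of Ube2g2, had 7, 4 and 8 counts in NTG, 10, 3 and 9 in TG-Low, and 0 throughout TG-High. miR-7048-3p had 6, 3 and 9 counts in NTG, 5, 11 and 8 in TG-Low, and 0 throughout TG-High.

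miR-2137 was at 0 throughout TG-Low and had 4, 7 and 26 counts in TG-High, the last in the least deep library. In NTG it had 4, 8 and 3 counts. miR-7688-5p showed 0 in single libraries beside high counts: 0, 57 and 25 in NTG, 35, 43 and 49 in TG-Low, and 82, 0 and 33 in TG-High. The mean of miR-7688-5p in NTG, 3.14 ± 3.50 CPM, is therefore no measure of its level in each library.

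The authors' deposited table of both lines against NTG lists 83 of 621 rows past an adjusted p of 0.05. Among them are 10 of the 149 late-numbered miRNAs, 8 lower and 2 higher. The split by direction over all rows was not counted, so 8 against 2 does not show a trend of these miRNAs. The 8 lower include miR-1199-5p, with 3, 10 and 5 counts in NTG, 1, 0 and 1 in TG-Low, and 0, 1 and 1 in TG-High. Of the 10, 6 were kept by the filter used here and 4 of those were called by edgeR. In the authors' deposited table miR-3057-5p has a log2 fold change of -0.76 with an adjusted p of 0.00369. The authors' deposited table gives the 3 rows at 0 in both lines, miR-7093-3p, miR-3109-3p and miR-5114, log2 fold changes of -4.93, -4.68 and -4.60 with adjusted p of 0.00827, 0.0213 and 0.0205. These fitted values stand on 19, 17 and 15 counts over the 3 NTG libraries and are no bound on the change.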

How the data were processed

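MicroRNA reads of 9 left ventricle libraries were available as 1 table with a row for each of 621 mature miRNAs. Raw counts per library, not normalized, fill 9 of its columns per the file headers. The authors deposited beside them a mean normalized signal, their log2 fold change (both lines against NTG, with standard error), a Wald score, and raw and adjusted p-values. Per the submitters' processing notes, bcl2fastq 1.8.4, Trim Galore 0.4.0, Novoalign, SAMtools, DESeq2 1.18.1 and mm10 (GRCm38) were used. Roles, counting tool, strand and annotation: not given in the sources used here. Per the labels' protocols, total RNA was isolated with Trizol and libraries were made with a TruSeq RNA kit.

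edgeR 4.0.16 (limma 3.58.1, R 4.3.3) was run on all rows with TMM scaling and filterByExpr (minimum count 10). TG against NTG was a 2-group fit, and the other 3 contrasts came from a 3-group fit of all 9 libraries. A row was called at a p of 0.05 after Benjamini-Hochberg adjustment over 509 rows. Alternatives were DESeq2 1.42.0 (size factors, Wald test), no filter, a replicate block, no top 5 miRNAs, 1 of each near-identical pair (log2 counts within 0.03), and each library left out. The fits were tested on simulated data. Within-group pairs of libraries differed beyond sampling noise (chi-square divided by its degrees of freedom, 40.2 to 433). Hairpin positions (GENCODE M21 and RefSeq on GRCm38) were found for all 149 members. Intervals and limits from counts cover counting error only.

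The named miRNAs are members above 10 CPM in NTG, those past the threshold, the 3 smallest p in each direction and comparison, and rows at 0 in a line with a mean NTG count of at least 3, with their other arms; miR-7688-5p was added after its values were seen, as were the arm ratios. Members and lists were chosen with earlier results of these data known.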

Additional observations from a re-analysis of the deposited data

How the results depend on the processing

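The number of members above 10 CPM in NTG was 23 with total counts or DESeq2 size factors and without any 1 NTG library, 31 with a minimum of 5 CPM and 19 with 20 CPM. Without the filter on low counts edgeR called 15 members in TG against NTG (10 of them at 0 in a line), 3 in TG-Low against NTG, 15 in TG-High against NTG (again 10) and 6 in TG-High against TG-Low. DESeq2's Wald test called 1 in TG-Low against NTG, where it called 5.70% of all rows. With single libraries left out, the calls ranged from 0 to 8 in TG against NTG, 0 to 7 in TG-High against NTG, and 0 to 1 in each of the other comparisons. They fell to 0 in TG against NTG without NTG replicate 0 or TG-High replicate 1, to 1 without NTG replicate 1 or 2, and rose to 8 without TG-Low replicate 2. Samples that share only a replicate number did not deviate together (correlations of same-numbered libraries from -0.17 to 0.23), and with the replicate block the calls were 3 in TG against NTG, 0 in TG-Low against NTG, 3 in TG-High against NTG and 0 in TG-High against TG-Low; miR-6945-3p then had an edgeR adjusted p of 0.0682 in TG against NTG. Apart from the Wald test, these are counts of members only, without the share called over all rows in the same fit. They do not show whether members moved more or less than the whole table. The cause of these moves was not tested, beyond the fewer or more rows and libraries in each fit. No direction reversed in 662 refits of single miRNAs: 602 stayed on their side of the threshold, 46 lost a call and 14 gained 1. These miRNAs were picked by a small p in the same libraries, so a reversal was unlikely from the start and its absence is no support. Most of these refits were of miRNAs not called with all libraries. The 602 therefore do not measure how stable the calls are. Below about 10 counts a library, depth limits what can be seen. DESeq2 gave no adjusted p in 10 cases, which were left out.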

Other observations

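Seeds were rarely shared. Among the members with a mature sequence, miR-7068-3p and miR-7018-3p share the seed CACCCUG, and miR-3077-3p and miR-7661-3p share UGACUCC. With rows outside the set, miR-6240 shares its seed with miR-330-3p, miR-1943-5p with miR-149-3p and miR-5129-3p with miR-455-5p.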
